A study of Mus musculus with 9 samples.

Results

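The genes described here are 10 genes of the Notch pathway, namely the receptors Notch1, Notch2, Notch3 and Notch4, the ligands Jag1, Jag2 and Dll1, and the targets Hes1, Hey1 and Hey2. They were taken as named genes, through every probe set annotated to 1 of them alone, and this gave 18 of the 34945 single-gene probe sets and 10 of the 18193 genes of the array. The series measured messenger RNA in 3 layers (round, flat and hypertrophic) of the proximal tibial growth plate in newborn (P0) wild-type Black Swiss mice. There was 1 Affymetrix array for each layer of each of 3 biological replicates. Arrays with the same replicate number were taken as 1 litter. The 18 to 20 tibiae behind a sample came from 1 litter, litters had 9 to 10 pups, and the layers were cut by hand from cryosections, so other cells of the tissue were not removed. In such bulk samples, fewer cells of a type and less RNA per cell cannot be told apart.

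Notch receptors are membrane proteins that are activated by Jagged and Delta ligands on a neighbouring cell. Ligand binding lets ADAM proteases and then gamma-secretase cut the receptor, and the freed intracellular domain joins the DNA-binding protein RBPJ and a Mastermind co-activator to switch on Hes and Hey genes, which encode repressors. In cartilage the pathway is known to restrain early chondrocyte differentiation and to act in the turnover of hypertrophic cartilage, and in blood vessels it governs sprouting and arterial identity.

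RBPJ recognises the core TGGGAA, most often preceded by G or CG. Upstream sequences of 250 bases from RefSeq (GRCm38.p6) were matched by symbol for 8 of the 10 genes, all but Hes1 and Hey1. TGGGAA or its reverse complement TTCCCA was present in 1 of these 8 genes, Hey2, where the longer GTGGGAA overlaps the same core. Of all 32851 upstream sequences of this length in the table, 21.6% held TGGGAA on either strand and 5.42% held GTGGGAA. A match in letters is a description of the sequence and no evidence of binding. The Hey2 sequence is shown for its match, in capitals on the minus strand of the printed sequence and 207 bases before the annotated start. Those of Notch4 and Notch1 are shown because the results on the receptors turn on these genes, and neither holds the core. The sequences are printed 5′ to 3′ in the direction of the gene. That of Hey2 is chr10:30842784-30843033 on the minus strand, that of Notch1 is chr2:26503823-26504072 on the minus strand, and that of Notch4 is the first 200 bases of its window, chr17:34564045-34564244 on the plus strand.
Hey2: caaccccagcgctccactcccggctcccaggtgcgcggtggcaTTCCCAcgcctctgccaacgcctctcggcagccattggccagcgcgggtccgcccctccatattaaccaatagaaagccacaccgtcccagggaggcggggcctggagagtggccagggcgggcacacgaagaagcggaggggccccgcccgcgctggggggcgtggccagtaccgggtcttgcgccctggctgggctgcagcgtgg
Notch4: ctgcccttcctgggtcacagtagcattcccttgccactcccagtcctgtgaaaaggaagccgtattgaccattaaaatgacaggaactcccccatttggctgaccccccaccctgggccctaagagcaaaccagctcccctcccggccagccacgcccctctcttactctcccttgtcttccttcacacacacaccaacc
Notch1: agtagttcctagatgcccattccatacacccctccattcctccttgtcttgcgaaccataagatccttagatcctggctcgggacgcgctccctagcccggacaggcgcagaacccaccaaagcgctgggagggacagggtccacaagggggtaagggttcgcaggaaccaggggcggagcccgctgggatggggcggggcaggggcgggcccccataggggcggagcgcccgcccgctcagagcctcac

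Values are MAS5 signals on a linear scale, given for litters 1, 2 and 3, and, since probe sets differ in brightness, they cannot order the genes by abundance. Each gene was read from its brightest single-gene probe set. Differences are on the scale log2(signal + 26), with a standard error (SE) from limma and litter as a block, and every adjusted p is limma's over all 11313 genes tested. A gene rose, fell or changed where its adjusted p was below 0.05. Median signals of the 9 arrays lay between 123 and 151, and their number limits the precision. Markers of the round and hypertrophic layers followed the labels. Of 6 round-layer markers 5 fell in flat minus round, and 5 of 5 hypertrophic-layer markers rose in hypertrophic minus flat. The same 5 also rose in flat minus round. They summed to 6842 to 11572 on round arrays and 31406 to 57002 on flat arrays, lowest of the flat arrays in litter 3. No marker of the flat layer was listed, so its label was not checked in this way. The round array of litter 1 stood apart in RNA integrity, with 4.25 as the 3′/5′ ratio of its actin control, against 1.45 to 2.06 on the other 8 arrays. The flat array of litter 3 had the highest summed signal of 16 skeletal muscle markers, 489175, against 121754 to 303990 on the other 8.

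Of the 10 genes, 9 had a mean signal above the level set for testing, and Hey2 lay just below it (7.13, against 7.21 on the log2 scale). In the flat against the round layer, 0 of the 9 rose and 3 fell (Notch1, Notch4 and Hes1), where 8.39% of all tested genes rose and 8.64% fell. In the hypertrophic against the flat layer 1 rose (Notch4) and 0 fell, beside 6.12% and 5.22% of all tested genes. In the hypertrophic against the round layer 1 rose (Notch4) and 1 fell (Notch2), beside 12.4% and 12.7%. At an unadjusted p below 0.05 in limma, 4 of the 9 were counted in each contrast, beside 30.1%, 24.6% and 36.6% of all tested genes in the 3 contrasts in turn. The median log2 difference of the 9 genes was -0.39, 0.43 and -0.10 in these 3 contrasts in turn, beside -0.014, -0.0049 and 0.0062 over all tested genes. Single omissions moved these counts of members by over 1.5 times. In flat minus round, 0 fell without the round array of litter 2, and 1 without the flat array of litter 1 or of litter 2. In hypertrophic minus flat, 2 rose without the round arrays of litters 1 or 3 or the flat arrays of litters 2 or 3. In hypertrophic minus round, 1 changed without the round or hypertrophic array of litter 1 or of litter 2. Arrays of the layers did not overlap for 3 of the 9 genes in each contrast, beside 25.3%, 22.7% and 36.5% of all tested genes. The mean signal was lowest in the flat layer for 5 of the 9 (Notch1, Notch4, Jag2, Dll1 and Hes1), where this held for 27.9% of all tested genes.

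**Figure D1:**
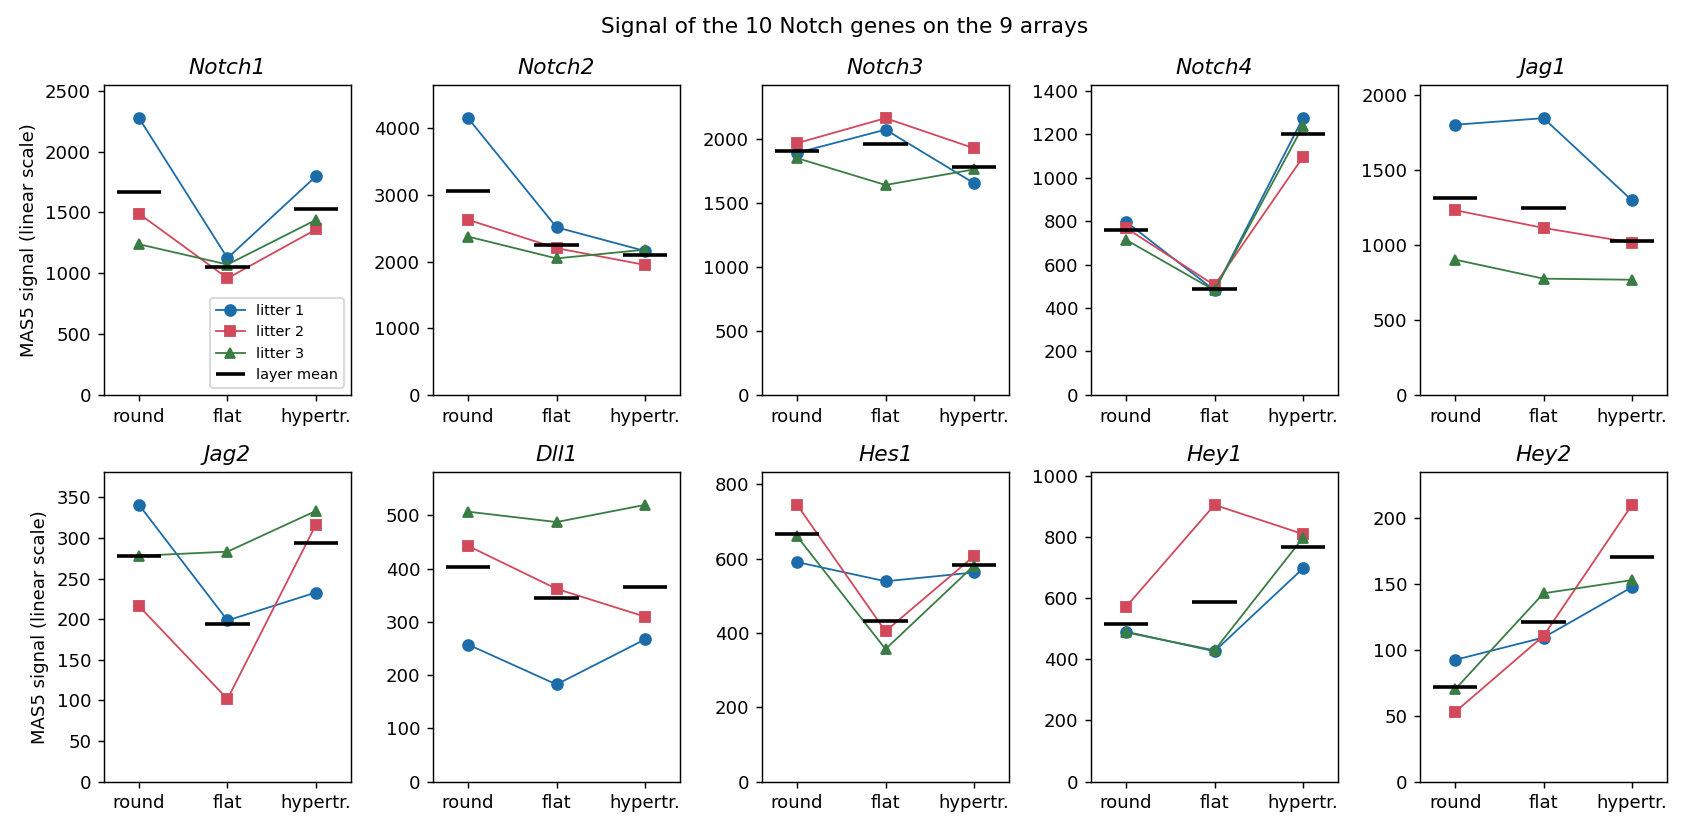
MAS5 signal (linear y axis) of the 10 Notch genes on the 9 arrays, by layer (x axis), with lines joining the arrays of a litter and bars at the layer means. Notch4 has its 3 flat arrays between 481 and 504 and its 3 hypertrophic arrays between 1095 and 1274.

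Notch4, a receptor known mainly from endothelial cells, was the only member that changed in all 3 contrasts. Its signals were 797, 768 and 714 in the round layer, 482, 504 and 481 in the flat layer, and 1274, 1095 and 1237 in the hypertrophic layer. The 3 layers did not overlap, with the flat arrays lowest and the hypertrophic arrays highest in every litter. The flat layer was 1.52-fold lower than the round layer (log2 difference -0.61 ± 0.14 SE, adjusted p = 0.0121). The hypertrophic layer was 2.38-fold higher than the flat layer (1.25 ± 0.14, adjusted p = 0.000221), a size exceeded by few genes, since it stood at percentile 97.7 of all tested genes by absolute difference. The hypertrophic layer was also 1.56-fold higher than the round layer (0.64 ± 0.14, adjusted p = 0.00619). The flat minus round call was lost without the flat array of litter 1 (adjusted p = 0.067) or the round array of litter 2 (0.0644), and with flat litter 3 and round litter 1 both left out (0.0646). All 3 calls were lost when the mean over the gene's 3 probe sets was used (adjusted p = 0.182, 0.271 and 0.917 in the same order), where the hypertrophic minus round difference was -0.061.

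Notch1, a receptor of many tissues, also had its lowest signals in the flat layer. Its signals were 2274, 1489 and 1238 in the round layer, 1124, 958 and 1071 in the flat layer, and 1796, 1359 and 1438 in the hypertrophic layer. The flat arrays lay below all arrays of the other layers, and the round array of litter 1 was the highest. The flat layer was 1.52-fold lower than the round layer (-0.61 ± 0.16, adjusted p = 0.0185). The hypertrophic layer stood at 0.52 ± 0.16 against the flat layer, higher in 3 of 3 litters, with an adjusted p of 0.0501, just short of the threshold. Against the round layer it stood at -0.08 ± 0.16 (adjusted p = 0.736). The flat minus round call was lost without the round array of litter 1 (-0.45, adjusted p = 0.0677), the flat array of litter 1 (0.121), the round array of litter 2 (0.0802) or the flat array of litter 2 (0.0556), without the litter block (0.104), and with the mean over its probe sets (0.0673). The hypertrophic minus flat difference passed without the round array of litter 1 (adjusted p = 0.019), the round array of litter 3 (0.0275) or the flat array of litter 3 (0.0413).

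Notch2, the receptor with a known part in osteoclast and chondrocyte maturation, had its highest signals in the round layer. Its signals were 4153, 2628 and 2376 in the round layer, 2516, 2202 and 2048 in the flat layer, and 2160, 1951 and 2179 in the hypertrophic layer. The hypertrophic arrays lay below all round arrays, while the flat and round arrays overlapped. The hypertrophic layer was 1.41-fold lower than the round layer (-0.49 ± 0.15, adjusted p = 0.0319), lower in 3 of 3 litters. The flat layer was lower than the round layer in 3 of 3 litters without passing the test (-0.39 ± 0.15, adjusted p = 0.1), and the hypertrophic minus flat difference was -0.10 ± 0.15 (adjusted p = 0.749). The hypertrophic minus round call was lost without the array of litter 1 of the hypertrophic (adjusted p = 0.189) or the round layer (-0.30, 0.122), or without that of litter 2 of the hypertrophic (0.114) or the round layer (0.0702). It was also lost without the litter block (0.114) and with flat litter 3 and round litter 1 both left out (0.103), and the mean over its probe sets gave a difference of 0.22.

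Notch3, the receptor of pericytes and vascular smooth muscle, had similar signals in the 3 layers. They were 1892, 1967 and 1850 in the round layer, 2073, 2163 and 1640 in the flat layer, and 1655, 1928 and 1762 in the hypertrophic layer. All 3 layers overlapped, and no contrast passed the test. The 95% interval of the log2 difference was -0.25 to 0.32 for flat minus round, -0.41 to 0.16 for hypertrophic minus flat and -0.38 to 0.19 for hypertrophic minus round.

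**Figure D2:**
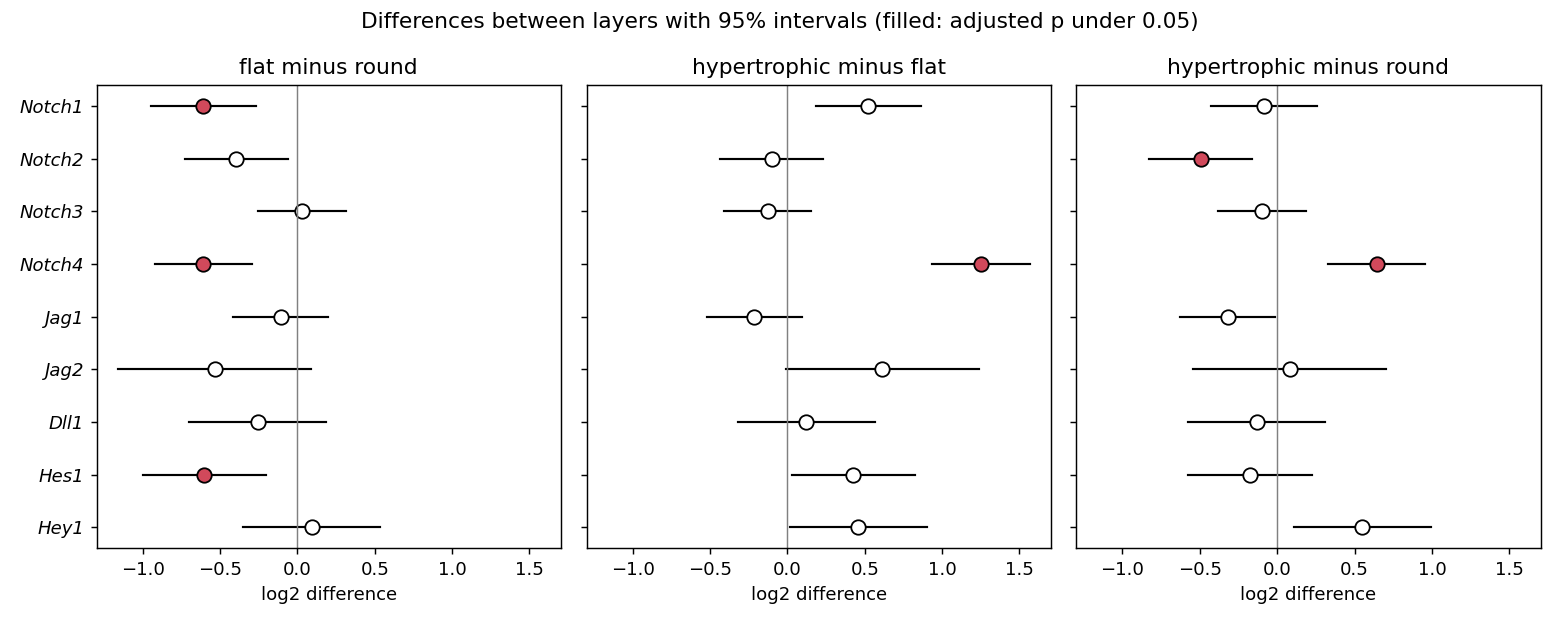
Log2 differences (x axis) of the 9 tested Notch genes (rows) in the 3 contrasts, with 95% intervals from limma and filled points for an adjusted p below 0.05. The filled points are Notch1, Notch4 and Hes1 in flat minus round, Notch4 in hypertrophic minus flat, and Notch2 and Notch4 in hypertrophic minus round.

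None of the 3 ligands passed the test in a contrast. Jag1, the Jagged ligand mutated in human Alagille syndrome, had signals of 1800, 1231 and 901 in the round layer, 1844, 1113 and 775 in the flat layer, and 1296, 1015 and 767 in the hypertrophic layer. In each layer the array of litter 1 was highest and that of litter 3 lowest, and the layers overlapped. Its log2 difference in hypertrophic minus round was -0.32 ± 0.14, lower in 3 of 3 litters (95% interval -0.63 to -0.015, adjusted p = 0.12). The intervals were -0.41 to 0.20 in flat minus round and -0.52 to 0.09 in hypertrophic minus flat.

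Jag2, the other Jagged ligand, had signals of 341, 216 and 278 in the round layer, 198, 102 and 283 in the flat layer, and 233, 316 and 333 in the hypertrophic layer. The layers overlapped, and the flat layer held both the lowest value and a value above 1 or more arrays of each other layer. The log2 difference was -0.54 ± 0.29 in flat minus round (adjusted p = 0.239) and 0.61 ± 0.29 in hypertrophic minus flat (adjusted p = 0.212, higher in 3 of 3 litters). The hypertrophic minus round difference was 0.08 ± 0.29 (95% interval -0.55 to 0.71).

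Dll1, a Delta ligand best known from somite and neural development, had signals that spread more widely over litters than its layer means did. Its signals were 258, 443 and 507 in the round layer, 183, 362 and 488 in the flat layer, and 267, 310.0 and 519.9 in the hypertrophic layer. Litter 3 was highest and litter 1 lowest in every layer, and the layers overlapped. The intervals of the log2 difference were -0.70 to 0.19 in flat minus round, -0.32 to 0.57 in hypertrophic minus flat and -0.58 to 0.31 in hypertrophic minus round.

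Among the targets, Hes1, a repressor that Notch induces in most tissues, was lowest in the flat layer. Its signals were 591, 745 and 660.4 in the round layer, 539, 405 and 357 in the flat layer, and 563, 607 and 582 in the hypertrophic layer. The flat arrays lay below all round and all hypertrophic arrays, and the array closest to the other layers was that of litter 1. The flat layer was 1.52-fold lower than the round layer (-0.60 ± 0.18, adjusted p = 0.0409). The hypertrophic layer stood at 0.43 ± 0.18 against the flat layer (adjusted p = 0.17, higher in 3 of 3 litters) and at -0.18 ± 0.18 against the round layer (adjusted p = 0.529). The flat minus round call was lost without the round arrays of litter 2 (adjusted p = 0.176) or 3 (0.142), the flat arrays of litter 2 (0.146) or 3 (0.177), or any one of the hypertrophic arrays (0.0528, 0.0623 and 0.0638 for litters 1 to 3). It was also lost without the filter (0.0714), without the litter block (0.071), and with flat litter 3 and round litter 1 both left out (0.0868).

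Hey1, a repressor induced by Notch in vessels and in bone-forming cells, was highest in the hypertrophic layer on average. Its signals were 490.3, 572 and 488 in the round layer, 426, 905 and 429 in the flat layer, and 697, 809.7 and 797 in the hypertrophic layer. The hypertrophic arrays lay above all round arrays, and the flat array of litter 2 lay above every other array. The hypertrophic minus round difference was 0.55 ± 0.20 (adjusted p = 0.0673, higher in 3 of 3 litters). The hypertrophic minus flat difference was 0.46 ± 0.20 (adjusted p = 0.184) and the flat minus round difference 0.09 ± 0.20 (adjusted p = 0.808). Without the flat array of litter 2, the hypertrophic layer passed against both the flat layer (0.75, adjusted p = 0.0279) and the round layer (adjusted p = 0.0227).

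Hey2, the relative of Hey1 that acts in the heart and in arteries, was dim. Its signals were 92.2, 52.8 and 69.9 in the round layer, 109, 110.4 and 143 in the flat layer, and 147, 209.5 and 153 in the hypertrophic layer. The layers did not overlap, and the order from round to flat to hypertrophic held in 3 of 3 litters. Its log2 differences were 0.60 in flat minus round, 0.41 in hypertrophic minus flat and 1.01 in hypertrophic minus round. It was not among the genes tested, and in a limma fit over all 18193 genes its adjusted p was 0.388, 0.643 and 0.0892 in the same order. The upstream sequence of Hey2 printed above is the one with an RBPJ core.

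Other probe sets of the same genes did not all run alike. Notch1 had a dimmer probe set with the same direction in flat minus round (-0.39 ± 0.23, adjusted p = 0.303 over 22518 probe sets). The other 2 probe sets of Notch4 were near the low end of the array, with means of 47.7 (round), 38.3 (flat) and 42.2 (hypertrophic) for one and 104, 31.3 and 71.0 for the other. The dimmer probe set of Notch2 had layer means of 72.6, 48.5 and 165, highest in the hypertrophic layer. The dimmer probe sets of Jag1 had layer means of 131, 187 and 132 for one and 218, 153 and 156 for the other. They ran in opposite directions in flat minus round, and neither passed there (adjusted p = 0.425 and 0.314). The dimmer probe set of Jag2 had layer means of 202, 278 and 229, highest in the flat layer, where the brighter one was lowest. In the fit over probe sets, those of Notch1, Notch2 and Notch4 used above changed in at least 1 contrast, 3 of the 14 member probe sets tested, beside 25.6% of all probe sets tested (12.5% in flat minus round, 7.47% in hypertrophic minus flat and 20.4% in hypertrophic minus round), and that of Hes1 had an adjusted p of 0.0598 in flat minus round.

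**Figure D3:**
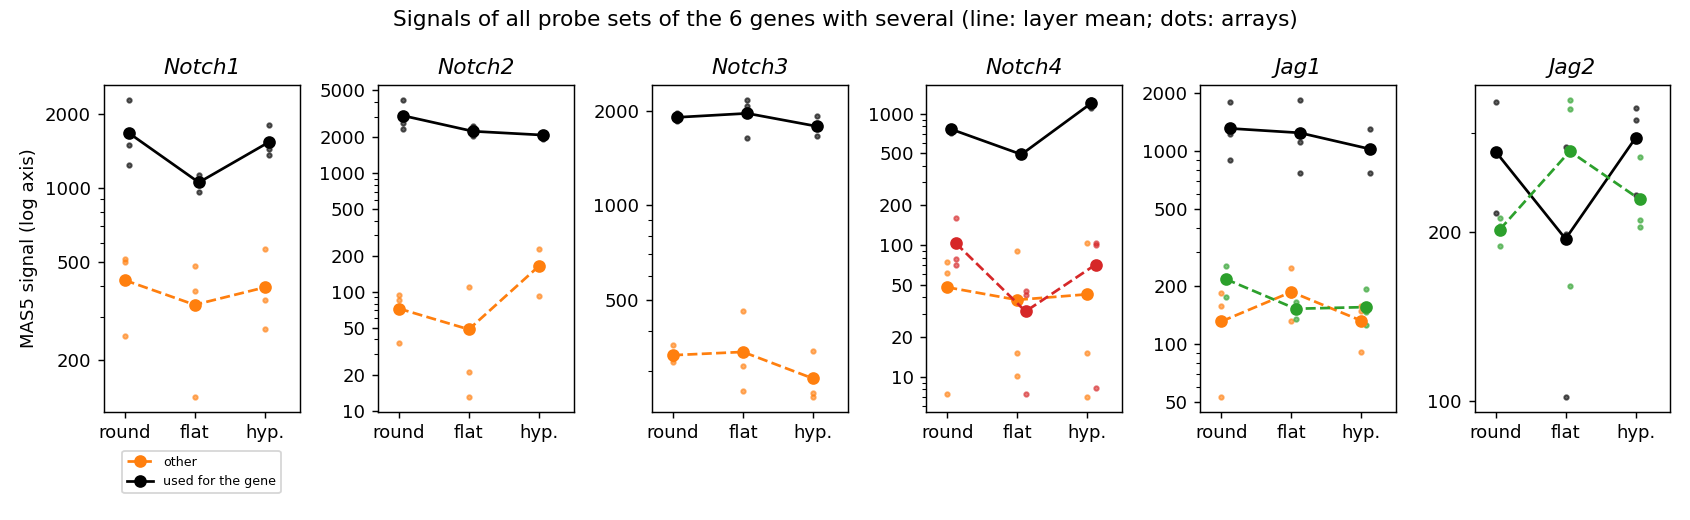
MAS5 signal (log y axis) of every single-gene probe set of the 6 Notch genes with more than 1, by layer (x axis), with layer means joined by lines and arrays as dots. The black line is the probe set used for the gene, and the 2 further probe sets of Notch4 have layer means between 31.3 and 104.

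Endothelial markers, like Notch1, Notch4 and Hes1, mostly had their lowest signals in the flat layer. Of the 18 listed and tested, 1 rose and 6 fell in flat minus round, 10 rose and 1 fell in hypertrophic minus flat, and 3 rose and 1 fell in hypertrophic minus round. Their median log2 difference was -0.32, 0.55 and 0.20 in that order, and 16 of the 18 had their lowest mean in the flat layer. Summed over the 18, round arrays gave 27723 to 28385, flat arrays 21072 to 22162 and hypertrophic arrays 29990 to 32596, with no overlap. Cdh5, the endothelial cadherin, rose in hypertrophic minus flat (1.15 ± 0.14, adjusted p = 0.000298), and Kdr, a receptor for VEGF, fell in flat minus round (-0.68 ± 0.15, adjusted p = 0.00792). Vwf, a clotting factor of endothelium, ran the other way (1.28 ± 0.24 in flat minus round and -2.62 ± 0.24 in hypertrophic minus flat, adjusted p = 0.00321 and 5.2e-05). The lowest layer mean of any of the 18 was 135, that of Vwf in the hypertrophic layer. Egfl7, in this list, is also a ligand-like protein of the pathway. Notch1, Notch4 and Hes1 are the members that fell in flat minus round, so their low flat-layer signal here follows from the choice. Hey2 and Heyl, also tied to vessels, had flat-layer means above their round-layer means (121 against 71.6, and 600 against 366). Hey1 and Dll4 did not change in any contrast. The part of endothelial cells in the Notch1, Notch4 and Hes1 values was not tested.

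**Figure D4:**
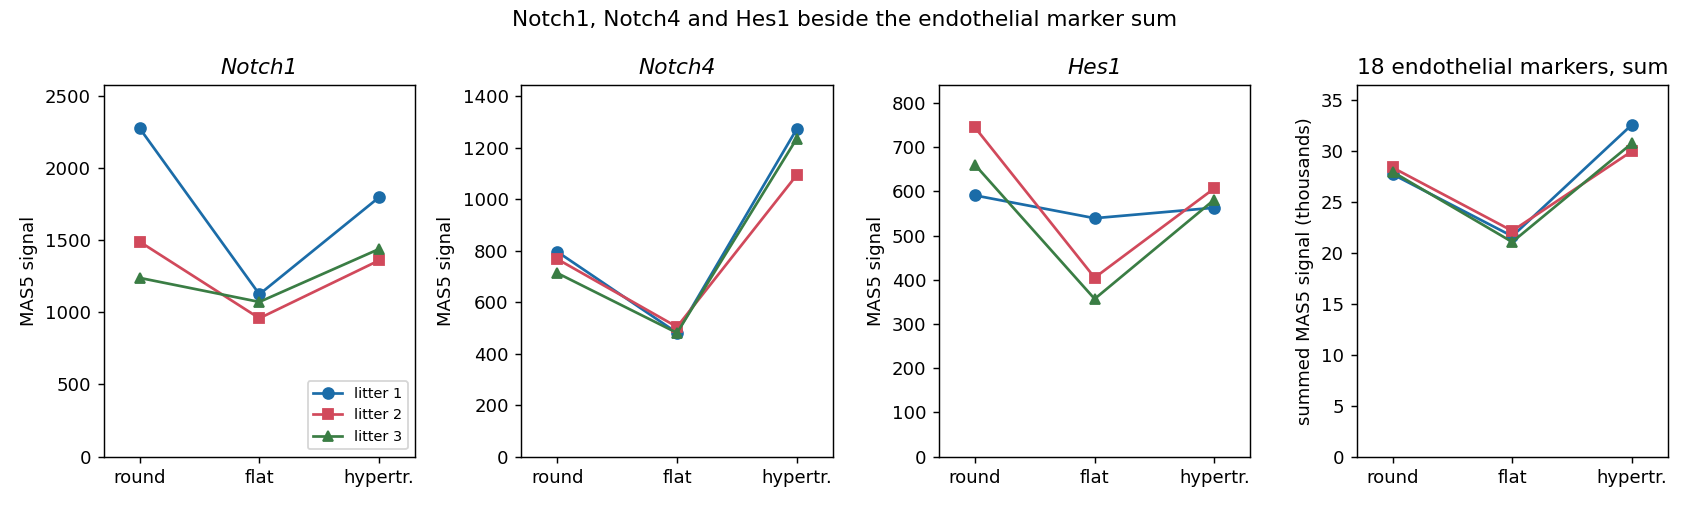
MAS5 signal (linear y axis) of Notch1, Notch4 and Hes1, and the summed signal of 18 endothelial markers, by layer (x axis) with lines joining the arrays of a litter. The marker sum is 21072 to 22162 on the flat arrays and at least 27723 on all others.

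Other cell-type markers also differed between the layers. Of 5 tested osteoblast markers 4 rose in flat minus round, 3 in hypertrophic minus flat and 4 in hypertrophic minus round, and 0 fell. Their median log2 difference was 1.97, 1.29 and 3.49 in that order. Of the 7 tested osteoclast markers 6 rose in flat minus round and 7 in hypertrophic minus flat. The osteoclast list summed to 4573 to 5960 on round, 12576 to 17427 on flat and 71247 to 94202 on hypertrophic arrays. The 9 macrophage markers summed to 13815 to 16279 on flat and 20342 to 25436 on hypertrophic arrays. Of these macrophage markers 3 rose and 1 fell in hypertrophic minus flat, and 4 had their highest mean in the flat layer. Of 16 skeletal muscle markers 15 rose in flat minus round and 14 fell in hypertrophic minus flat. Their sum ran over 123234 to 198783 on round arrays, 294082 to 489175 on flat arrays and 121754 to 292190 on hypertrophic arrays. The 10 pericyte and smooth muscle markers summed to 29628 to 31859 on flat arrays, within the 28618 to 33655 of round arrays, and to 25404 to 28430 on hypertrophic arrays. Of the 9 of them tested, 1 rose and 2 fell in flat minus round, 2 rose and 3 fell in hypertrophic minus flat, and 1 rose and 3 fell in hypertrophic minus round. Their part in the Notch results was not tested.

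Of 74 other pathway genes listed, 59 were tested and 25 changed in at least 1 contrast, beside 32.7% of all tested genes. In flat minus round 4 of the 59 rose and 9 fell, beside 8.39% and 8.64% of all tested genes. In hypertrophic minus flat 5 rose and 4 fell, beside 6.12% and 5.22%. In hypertrophic minus round 8 rose and 11 fell, beside 12.4% and 12.7%. The same shares stand beside the counts of the single lists below. Their median log2 differences were -0.15, 0.06 and -0.0049 in that order.

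Among the 7 tested genes listed as targets, whose induction by Notch was not tested here, 4 rose and 1 fell in hypertrophic minus round. In hypertrophic minus flat 3 rose (Heyl, Id3 and Bhlhe40) and 0 fell. In flat minus round, where Hes1 fell, 2 rose and 3 fell. The 2 that rose there were Heyl (0.67 ± 0.16, adjusted p = 0.0124, lost in 4 of 16 alternatives) and Hes6 (0.72 ± 0.16, adjusted p = 0.00725, lost in 1). Heyl, the Hey-family repressor known from vascular smooth muscle, had signals of 333, 344 and 422 in the round layer, 635, 505 and 660.1 in the flat layer, and 1121, 806 and 1080 in the hypertrophic layer. The layers did not overlap, and the order from round to flat to hypertrophic held in every litter. Heyl rose in hypertrophic minus round by 1.38 ± 0.16 (adjusted p = 5.13e-05), a call kept in all 16 alternatives. Hes6, a Hes-family member that opposes Hes1, rose by 0.72 ± 0.16 (adjusted p = 0.00483) and Bhlhe40, a helix-loop-helix repressor, by 0.69 ± 0.15 (adjusted p = 0.00583, or 0.186 without the litter block). Nrarp, a feedback inhibitor that Notch induces, rose by 0.61 ± 0.16 (adjusted p = 0.0162). Its call was lost without the round array of litter 1 (adjusted p = 0.0555) or the hypertrophic arrays of litter 1 (0.0978) or 3 (0.0939), and with the mean over its probe sets (0.33, 0.227). Hes6, Bhlhe40, Nrarp and Id3 were named after their values were seen. Id1, an inhibitor of helix-loop-helix factors that is also induced by BMP, fell by 1.06 ± 0.13 in hypertrophic minus round (adjusted p = 8.5e-05) and by 1.08 ± 0.13 in flat minus round (adjusted p = 0.000154). Id2, of the same family, fell by 0.97 ± 0.21 in flat minus round (adjusted p = 0.0065), a call lost without the round array of litter 2 (0.0562) and with the mean over its probe sets (-0.57, 0.12). Id3, their relative, fell by 0.55 in flat minus round (adjusted p = 0.0208), a call lost in 5 of 16 alternatives. Id3 rose by 0.78 in hypertrophic minus flat (adjusted p = 0.00468, or 0.0597 without the litter block).

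Rbpj, which encodes the DNA-binding partner of the receptors, had signals of 1901, 2431 and 2783 in the round layer, 1397, 1867 and 1715 in the flat layer, and 979.7, 1287 and 1512 in the hypertrophic layer. The round arrays lay above all others, and the flat and hypertrophic arrays overlapped. It fell by 0.50 ± 0.13 in flat minus round (adjusted p = 0.019), a call lost in 7 of 16 alternatives. In hypertrophic minus round it fell by 0.90 ± 0.13 (adjusted p = 0.000271), a call lost with the mean over its probe sets (-0.36, 0.137). Of the 17 tested nuclear genes 2 rose and 4 fell in that contrast. The Groucho-type co-repressors Tle2 and Tle1 fell there by 0.75 ± 0.22 (adjusted p = 0.0231) and 0.61 ± 0.15 (adjusted p = 0.00839). Their relative Tle3 rose there by 0.51 ± 0.13 (adjusted p = 0.0142), a call lost in 4 of 16 alternatives. Tle4 and Tle5 did not pass (adjusted p = 0.452 and 0.873). The Tle2 call was lost without the hypertrophic (adjusted p = 0.0914) array of litter 1, either array of litter 2 (0.124 hypertrophic, 0.0717 round), the round array of litter 3 (0.118) or the litter block (0.0792). The Tle1 call was lost without the hypertrophic (0.0552) or round (0.0561) array of litter 3 and with the mean over its probe sets (0.0597).

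Of the 6 tested ligands and ligand-like proteins, 0 rose and 2 fell in hypertrophic minus round, and 1 rose and 3 fell in hypertrophic minus flat. Dlk1, a Delta-like protein without the domain that activates Notch, had signals of 27156, 30855 and 36389 in the round layer, 18955, 22022 and 32553 in the flat layer, and 7870, 11168 and 20419 in the hypertrophic layer. The hypertrophic arrays lay below all round arrays and overlapped the flat ones. It fell by 1.36 ± 0.16 in hypertrophic minus round (adjusted p = 4.8e-05), and Mfap2, a microfibril protein able to bind Jagged, fell by 1.31 ± 0.12 (adjusted p = 7e-06). Both also fell in hypertrophic minus flat. Dlk1 fell there by 0.97 ± 0.16 (adjusted p = 0.00192, or 0.0955 without the litter block). Mfap2 fell there by 0.99 ± 0.12 (adjusted p = 0.000283). Mfap5, a relative of Mfap2, fell by 0.92 ± 0.21 in hypertrophic minus flat (adjusted p = 0.0123). That call was lost without the array of litter 1 of either layer (adjusted p = 0.0762 hypertrophic, 0.0959 flat), that of litter 3 of either layer (0.0743 hypertrophic, 0.0667 flat), or the litter block (0.166). Mfap5 also rose in flat minus round by 0.84 ± 0.21 (adjusted p = 0.0145), a call lost in 6 of 16 alternatives. Its hypertrophic minus round difference was -0.09 ± 0.21 (adjusted p = 0.798). Mfap5 is also in the marker list of perichondrium, fibroblast and tendon, where 1 of 11 tested genes rose and 6 fell in hypertrophic minus flat. Dll4, the Delta ligand of sprouting vessels, did not pass in a contrast, with layer means of 264 ± 69.1 in the round layer, 267 ± 122 in the flat layer and 318 ± 48.0 in the hypertrophic layer (SD, n = 3 each).

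Adam10, a protease of the first receptor cut after ligand binding, rose in hypertrophic minus flat by 0.68 ± 0.13 (adjusted p = 0.00574). Its signals were 5623, 5678 and 5161 in the hypertrophic layer, against 3990, 2831 and 3487 in the flat layer. The hypertrophic arrays all lay above the flat arrays. The call was lost without the hypertrophic array of litter 2 (adjusted p = 0.0553) and with the mean over its probe sets (0.31, 0.565). Of the 8 tested receptor proteases it was the only one that changed. Of the 5 glycosyltransferases of the receptors, only Poglut1 changed, in flat minus round (-0.54 ± 0.15, adjusted p = 0.03). That call ended in 6 of the 9 single-array omissions (adjusted p of 0.052 to 0.155). Lfng, a Fringe enzyme, did not pass, at 0.69 ± 0.28 in hypertrophic minus round (adjusted p = 0.0953). It passed in that contrast without the round array of litter 1 (1.05, adjusted p = 0.0158), without the hypertrophic array of litter 1 (1.06, 0.0233), and with flat litter 3 and round litter 1 both left out (0.00721). That joint omission also brought it past the threshold in flat minus round (adjusted p = 0.0316, against 0.266 with all arrays).

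The 16 tested genes of endocytosis and turnover held 2 that rose and 4 that fell in hypertrophic minus round. Dtx1, a Deltex ubiquitin ligase that binds Notch, had signals of 56.3, 89.9 and 73.2 in the hypertrophic layer, against 402, 168 and 239 in the round layer, with no overlap. It fell by 1.51 ± 0.34 (adjusted p = 0.0063), or 0.0584 with flat litter 3 and round litter 1 both left out. Its relatives ran in opposite directions, since Dtx3 fell by 1.05 ± 0.20 (adjusted p = 0.00232) and Dtx4 rose by 0.95 ± 0.18 (adjusted p = 0.00179).

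**Figure D5:**
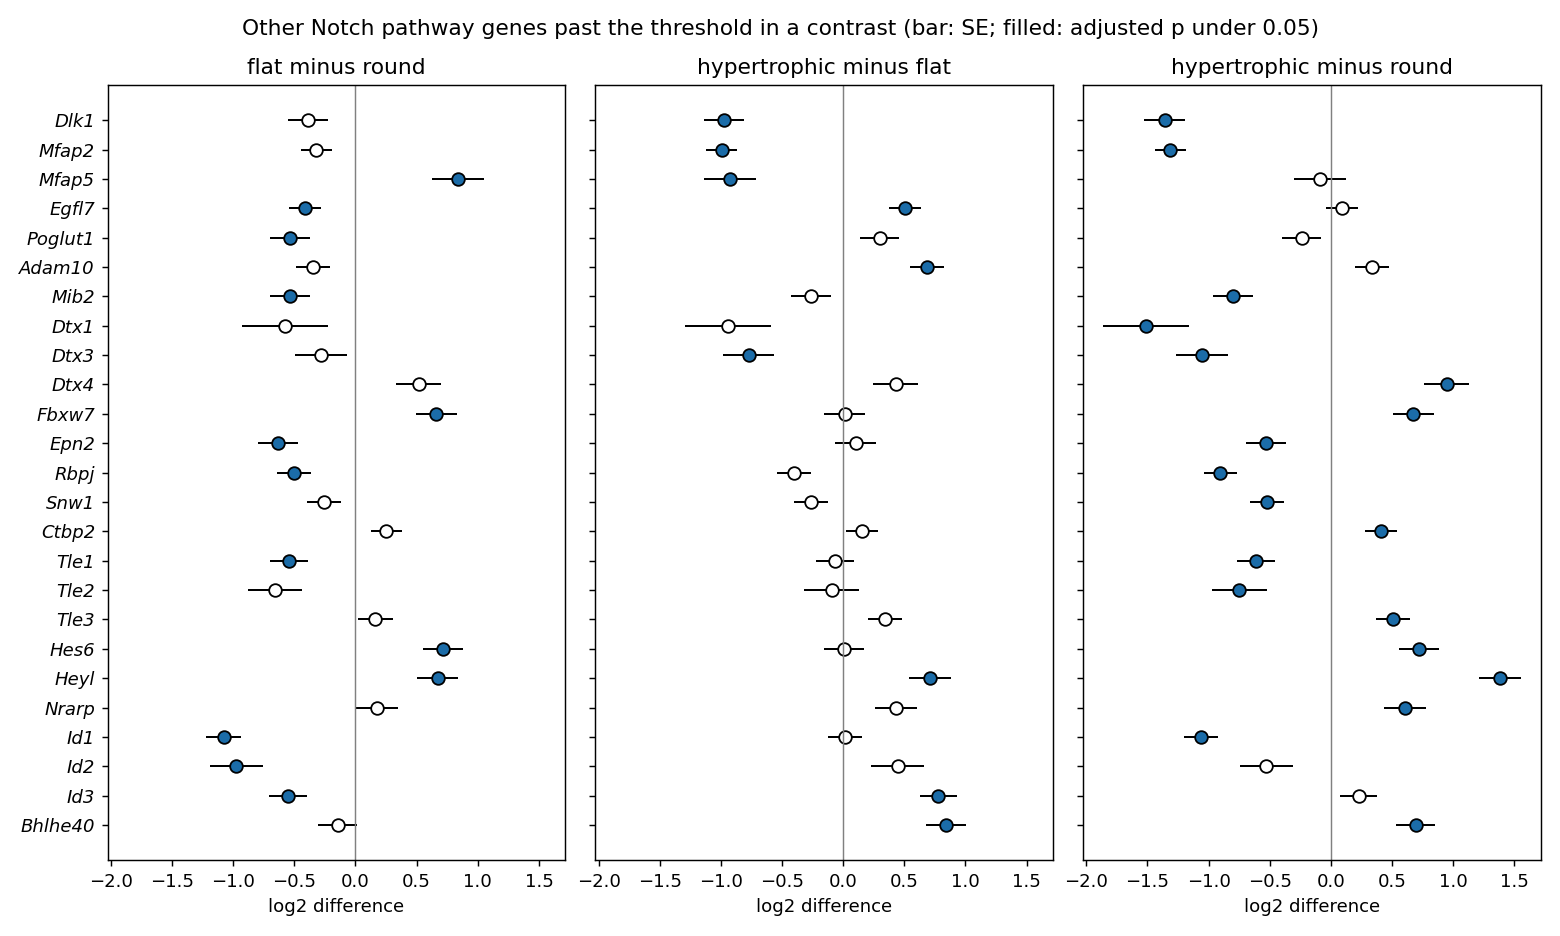
Log2 differences (x axis) of the 25 other Notch pathway genes (rows) that changed in at least 1 contrast, with SE bars and filled points for an adjusted p below 0.05. In hypertrophic minus round, 8 filled points lie to the right of 0 and 11 to the left.

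The genes most like each member over the 9 arrays were found by the root mean square difference between their log2 values after each was centred on its own mean, among 11312 other tested genes. For Notch4, which itself spread over 0.52, they were Pon2 (0.12), Pcdh12 (0.15) and Pdgfb (0.15). For Notch1 (0.36) they were Zfp707 (0.12), Usf2 (0.13) and Col18a1 (0.13), and for Notch2 (0.30) Nenf (0.06), Rela (0.07) and Kif1c (0.07). For Notch3 (0.13) they were Btbd9, Dnajc4 and Osbpl7 (0.08 each). Among the ligands, Jag1 (0.43) was closest to Palb2 (0.08), Jag2 (0.45) to Cx3cl1 (0.16) and Dll1 (0.46) to Glt28d2 (0.19). Among the targets, Hes1 (0.30) was closest to Dmxl2 and Tiam2 (0.11 each) and Hey1 (0.38) to Slc25a1 (0.12). These likenesses were searched over the same 9 arrays and describe them only.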

How the data were processed

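Total RNA of 9 samples (2.7 to 4.6 µg each) was made into cRNA by the Affymetrix one-cycle method for mouse arrays, per the labels' protocols. The deposited MAS5 signal intensities were made by the authors with Affymetrix Expression Console, per the submitters' processing notes. Their versions are not given in the sources used here, and in the deposited table of 45101 probe sets, each array has a mean of 500.003 with 2% of values trimmed at either end, which shows scaling to a common level. No detection call or scanner file was used here, and 0 pairs of arrays were identical.

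Of 45037 probe sets that are not controls, 34945 were annotated to 1 gene, 932 to several and 9160 to none, and 34741 of the first were matched by gene identifier. The brightest single-gene probe set stood for each gene. The values log2(signal + 26), whose pseudocount is the 20th percentile of all values and lowers the fold change of dim genes, were fitted with limma 3.58.1 in R 4.3.3 with layer and litter as terms and a variance trend (residual degrees of freedom 4, prior 8.15, median SE 0.179). Genes with a mean above 7.21 on the log2 scale were tested, and p was adjusted by Benjamini-Hochberg within each contrast, with a threshold of 0.05. The labels number the biological replicates, and arrays with the same number were taken as 1 litter. Deviations from the layer means correlated at 0.167 to 0.517 in 9 pairs of arrays with the same number, against -0.434 to 0.0815 in 18 others. Because each layer was centred on its own mean, the low values of the other pairs follow in part from the higher ones. A shared litter and a shared processing batch cannot be told apart by these values. Summed marker signals cover all genes of a list on the array.

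The members and gene lists were chosen with earlier results of these data known. Named genes are all 10 members, up to 3 changed genes per pathway list with the largest difference, and 5 pathway genes of fixed role. To these were added Hes6, Bhlhe40, Nrarp, Id3, Tle3, Tle4 and Tle5, all named after their values were seen. The tested genes closest in pattern to each member and up to 3 marker examples per list were also named. Alternatives were pseudocounts 4 times larger and 4 times smaller, no filter, no litter block, arrays centred on their medians, the mean over a gene's probe sets, and the omission of each array. Omission of 2 arrays together, flat litter 3 and round litter 1, was chosen after seeing the data.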

Additional observations from a re-analysis of the deposited data

How the results depend on the processing

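Each difference rests on 3 litters, and dim probe sets such as that of Hey2 carry little signal over background. Of 432 values (27 differences of the 9 tested members under 16 alternatives), 379 kept direction and side of the threshold, 29 lost the call, 9 gained one and 17 changed sign, with 2 both lost and changed in sign. None of the 6 member calls held in every alternative, and Notch4 in hypertrophic minus flat was lost in 1 of them, the mean over probe sets. Of 41 calls among the other pathway genes, 10 held in every alternative. Causes were not tested.

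Without the litter block, as no pairing was then used, 935 genes changed in flat minus round, 553 in hypertrophic minus flat and 1824 in hypertrophic minus round. Under the same setting 1 member changed in flat minus round and 1 in hypertrophic minus round, with 15 other pathway genes and 1 member probe set changed in at least 1 contrast.

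With the mean over probe sets, 1, 0 and 0 members changed in the 3 contrasts, and the sign turned for Notch2 (0.71 in hypertrophic minus flat, 0.22 in hypertrophic minus round), Notch4 (-0.061 in hypertrophic minus round), Dll4 (0.12 in flat minus round) and Adam10 (0.30 in flat minus round). With a pseudocount 4 times as large or arrays centred on their medians, 2 members changed in hypertrophic minus flat, and Notch3 turned to -0.027 in flat minus round with centred arrays.

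Single omissions, with the joint omission included, gave 1225 to 1956 genes in flat minus round (lowest without the round array of litter 2), 591 to 1658 in hypertrophic minus flat (lowest without the hypertrophic array of litter 1) and 1770 to 3211 in hypertrophic minus round (lowest without the hypertrophic array of litter 2). Hypertrophic minus flat also fell to 698 without flat litter 1, 692 without hypertrophic litter 2 and 732 without hypertrophic litter 3. Members numbered 0 to 2, 1 to 2 and 1 to 3 in the same order, and member probe sets 1 to 3 (lowest without round litter 2). Differences whose sign turned in such an omission ranged as follows. In flat minus round, Notch3 ranged from -0.042 to 0.17, Hey1 from -0.20 to 0.43 and Dll4 from -0.35 to 0.13. In hypertrophic minus flat, Notch2 ranged from -0.24 to 0.039, Dll1 from -0.015 to 0.29 and Lfng from -0.036 to 0.56. In hypertrophic minus round, Notch1 ranged from -0.26 to 0.076, Jag2 from -0.23 to 0.33, Dll1 from -0.27 to 0.037 and Dll4 from -0.020 to 0.61. None of these differences had passed the threshold with all arrays.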
